A study of Homo sapiens with 6 samples.

Results

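The genes that carry glucose through glycolysis and handle the resulting pyruvate and lactate were followed in PC-3 tumors of nude mice. The PC-3 line comes from a human prostate cancer and grows without androgens. The list holds 31 named genes, chosen by symbol, together with the pyruvate kinase entry, which the table lists as PKM2 and which is called PKM here. All 32 were found among the 24000 entries of the table. RNA was measured in 3 tumors from mice given vehicle and in 3 from mice given WCE, a standardized herbal extract of Wedelia chinensis, and the labels give a treatment of 10 weeks for every mouse in both groups. No further allele or agent is named for the 6 tumors, and for imaging the study's methods describe cells that carry a luciferase gene. The labels do not give the dose or the age of the mice. In the orthotopic model that the study describes, the cells were placed in the prostate of male athymic mice, which lack T cells but keep other host cells, so a piece of tumor holds human cells of 1 line together with mouse cells.

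Glucose enters the cell through transporters, is trapped by phosphorylation and is split into a pair of sugar phosphates that are oxidised to pyruvate, with a net gain of ATP. Pyruvate then either enters the mitochondrion as acetyl-CoA or is reduced to lactate, which leaves the cell with a proton through monocarboxylate transporters. Many tumors make lactate even where oxygen is present, and in low oxygen the factor HIF1 raises transcription of many genes of this route. Primary prostate cancer relies on glycolysis less than many other carcinomas do, and a stronger use of it is known from advanced disease.

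Values are FPKM, the number of fragments divided by transcript length and by the mapped fragments of the library, so levels of different genes can be compared per length. The sums of FPKM were 617592 to 703600 per tumor. The table holds no read counts, and only relative depth could be read from the steps of low values. With vehicle replicate 3 set to 100%, it was 25% in WCE replicate 1 and 65% to 85% in the other 4 tumors. Vehicle replicate 3 and WCE replicate 1 were nearly identical although they carry different labels. Over the 1915 entries whose mean FPKM reached 50, they differed by a median of 0.028 on the log2 scale, where the remaining 14 pairs of tumors differed by 0.095 to 0.247. In vehicle replicate 3, 1419 entries were above 0 that were at 0 in WCE replicate 1, and 0 entries showed the reverse. In each of the remaining 14 pairs at least 329 entries did so in either direction. Whether these libraries stem from separate tumors was not tested. The 31 tested glycolysis genes differed between these libraries by a median of 0.032 on the log2 scale. Values without both libraries are therefore given beside each gene of the list whose call changes and beside the ratios. Among epithelial markers, KRT8 was at 192 to 253 FPKM and the androgen-regulated KLK3 was listed at 0 in all 6 tumors. The 3 red cell genes summed to at most 0.258 FPKM in any tumor. In bulk tumor RNA, fewer cells of a type and less RNA per cell cannot be told apart.

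Most genes of the list had a slightly higher mean in WCE tumors, and none passed the test after adjustment. Of the 31 genes that passed the filter on low values (mean FPKM of 0.5 or more), 24 had a higher mean on the log2 scale in the WCE tumors and 7 a lower one. The share with a higher mean was 77.4%, against 48.6% of all 13287 entries tested. This count rested partly on single tumors. With 1 tumor left out, 18 to 26 genes had a higher mean. Without vehicle replicate 2 it was 18 higher and 13 lower. The median log2 fold change was 0.14 over the 31 genes and -0.0063 over all entries. At an unadjusted p under 0.05 with limma, 2 genes were higher in WCE tumors, GAPDH and ENO2. That is 6.45% of the list, where 3.78% of all entries were called in that direction. None was lower, against 3.33% of all entries. After Benjamini-Hochberg adjustment over all entries 0 of the 31 genes passed, the lowest adjusted p being 0.623, and 1 entry outside the list passed, 0.00753% of those tested. All 3 WCE tumors lay above all 3 vehicle tumors for PFKM, GAPDH and GYS1, 9.68% of the list against 6.37% of all entries. The reverse held for PFKFB2, 3.23% of the list against 6.40% of all entries.

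Leaving out the nearly identical libraries made the difference larger, which follows from their place in opposite groups. They hardly differ, so together they shrink a group difference of either sign, and leaving both out undoes this. The larger differences and ratios given without both libraries, here and below, are therefore no separate support. With 2 tumors per group, 8 of the 31 genes (25.8%) were higher at an unadjusted p under 0.05 in limma, namely HK2, PFKL, PFKM, PFKFB3, ALDOC, TPI1, GAPDH and ENO2, against 8.84% of all entries. None was lower, against 9.59% of all entries, and 0 genes of the list passed the adjusted threshold. Both WCE tumors lay above both vehicle tumors for 14 genes of the list, where 25.7% of all entries did so. Both lay below for PFKFB2, PDHA1 and PDHB, where 27.8% of all entries did so. The median log2 fold change of the 31 genes was 0.19 without these libraries. The number of genes called higher also rested on single tumors. It was 0 when vehicle replicate 2 or WCE replicate 3 was left out, 1 when vehicle replicate 1 was, and 6 when vehicle replicate 3 was.

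**Figure D1:**
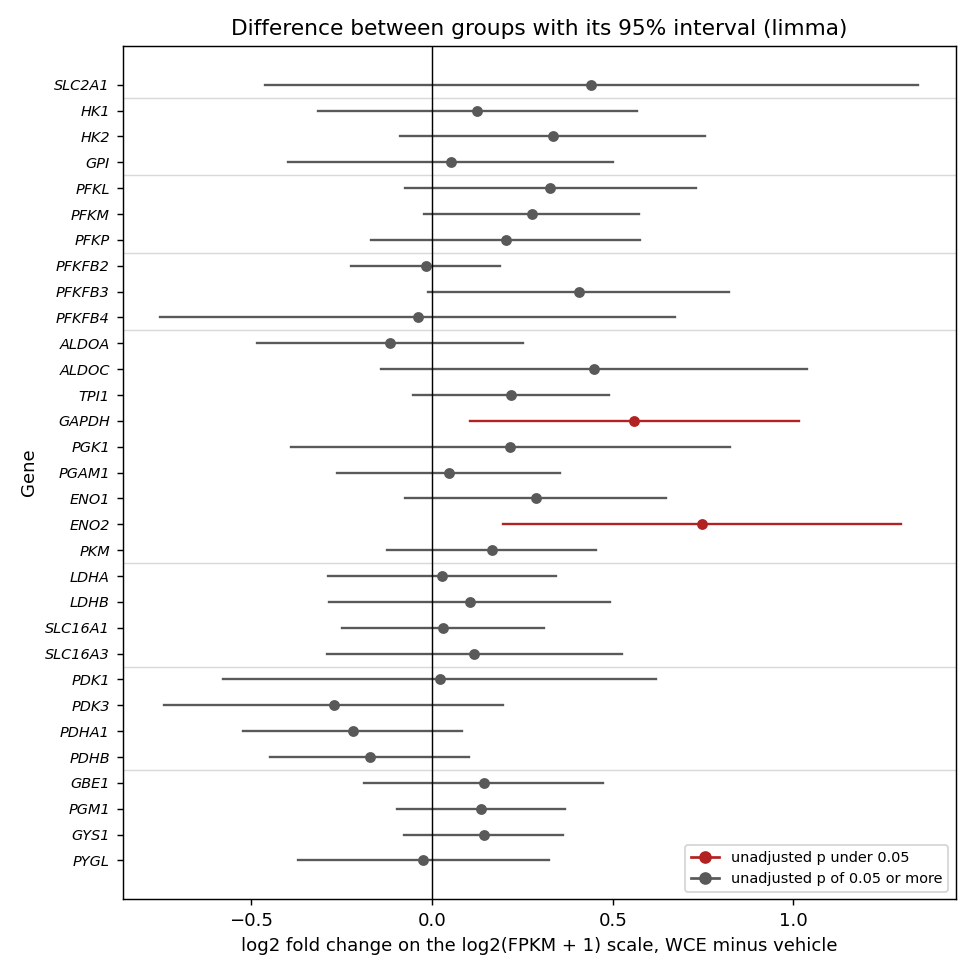
Log2 fold change of WCE against vehicle tumors for the 31 tested genes on the log2(FPKM + 1) scale, with points for the limma estimate and bars for its 95% interval (3 tumors per group), and grey lines between roles. GAPDH at 0.56 and ENO2 at 0.75 are the only intervals that lie wholly above 0, and none lies wholly below 0.

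Shown here are sequences before an annotated start of the 2 called genes, ENO2 and GAPDH, and of ALDOC and LDHA. These genes are known to share a short element. With each CACGTG counted on both strands, LDHA has the most matches of the list to the motif described next. ALDOC and PDHB, a gene of pyruvate entry that is not printed here, share the next highest number. The core ACGTG is part of the hypoxia response element bound by HIF1 and, as CACGTG, of the E-box bound by MYC and USF factors. Each line holds the 250 bases before 1 annotated start of the gene from RefSeq (GRCh38.p14), 5′ to 3′ on the strand of the gene. Capitals mark ACGTG on either strand (CACGT where the motif lies on the other strand). The GAPDH and LDHA entries of the expression table have 2 starts each, and which start the tumors used was not tested. Judged by the distances to ENO2 and TPI1 on the same chromosome, the GAPDH window lies inside the span of its entry, before a later start. The intervals are chr12:6914330-6914579 on the plus strand for ENO2, chr12:6535014-6535263 on the plus strand for GAPDH, chr17:28576896-28577145 on the minus strand for ALDOC and chr11:18394313-18394562 on the plus strand for LDHA.
ENO2: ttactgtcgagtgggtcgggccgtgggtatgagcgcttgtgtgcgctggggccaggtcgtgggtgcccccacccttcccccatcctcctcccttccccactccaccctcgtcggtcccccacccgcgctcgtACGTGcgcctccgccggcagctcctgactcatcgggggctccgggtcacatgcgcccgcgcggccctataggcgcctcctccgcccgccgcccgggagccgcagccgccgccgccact
GAPDH: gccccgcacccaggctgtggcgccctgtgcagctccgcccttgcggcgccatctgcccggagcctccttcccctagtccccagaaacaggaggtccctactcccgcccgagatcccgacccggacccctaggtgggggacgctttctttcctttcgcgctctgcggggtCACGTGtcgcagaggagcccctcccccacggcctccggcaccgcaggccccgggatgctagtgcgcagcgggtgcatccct
ALDOC: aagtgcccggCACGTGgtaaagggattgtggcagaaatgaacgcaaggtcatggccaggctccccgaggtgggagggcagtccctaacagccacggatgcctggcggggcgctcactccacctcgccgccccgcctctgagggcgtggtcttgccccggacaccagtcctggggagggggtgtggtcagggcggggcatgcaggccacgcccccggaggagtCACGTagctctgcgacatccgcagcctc
LDHA: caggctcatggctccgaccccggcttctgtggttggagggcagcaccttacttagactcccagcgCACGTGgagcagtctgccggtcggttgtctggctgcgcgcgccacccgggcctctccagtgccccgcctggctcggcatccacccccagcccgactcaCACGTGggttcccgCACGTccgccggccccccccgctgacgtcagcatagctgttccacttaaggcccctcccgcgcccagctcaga
A CACGTG counts as 2 matches, 1 on each strand. ENO2 has 1 match, GAPDH 2 that overlap in a single CACGTG, ALDOC 3 and LDHA 5, and those of ALDOC and LDHA also include CACGTG. PDHB has 3 matches, a CACGTG among them, and HK2 and PGK1 each have 2 matches that do not overlap. GPI, ALDOA, PDK3 and GBE1 have 1 match each. Of the genes with a match, PDHB, ALDOA and PDK3 had lower means in WCE tumors, and the others had higher ones. Of the 32 genes, 29 matched a promoter in the table, SLC2A3, PFKFB2 and SLC16A1 being the others. Of these 29 promoters, 11 (37.9%) held ACGTG on either strand, against 18.7% of all 27305 promoters of the same length. At least 2 matches, which a single CACGTG already gives, were found in 6 (20.7%), against 7.65% counted in the same way. The related GCGTG was found in 12 (41.4%), against 31.9% of all promoters. Neither motif was found in 12 of the 29 windows, those of SLC2A1, PFKM and PKM among them. A match is a match of letters only, and binding was not measured.

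Glucose uptake rested on SLC2A1 (GLUT1), the common transporter of epithelial cells and tumors. It was at 20.5, 35.0 and 59.2 FPKM in vehicle tumors and 60.5, 31.5 and 57.2 in WCE tumors. WCE replicates 1 and 3 and vehicle replicate 3 were high, vehicle replicate 1 was low, and the groups overlapped. The means were 38.2 ± 19.6 and 49.7 ± 15.9 (SD, n = 3), a log2 fold change of 0.44 ± 0.39 (SE) with an unadjusted p of 0.291 in limma. This gene had the widest spread over tumors of all 31, 1.52 on the log2(FPKM + 1) scale, where the median gene of the list spanned 0.614 and the median of all entries tested was 0.449. SLC2A3 (GLUT3), a transporter of high affinity, was between 0.129 and 0.837 FPKM and was not tested. The SLC2A1 entry lies at chr1:43391046-43449029 in the coordinates of the table, whose processing notes name hg19 as the human build, and the coordinates of other entries below are of the same table.

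The hexokinases trap glucose as glucose 6-phosphate. HK1, the broadly expressed form (chr10:71029756-71161637), was at 51.8, 42.2 and 67.4 FPKM in vehicle tumors and 66.9, 48.3 and 59.6 in WCE tumors. Vehicle replicate 3 and WCE replicate 1 were the highest, and the groups overlapped, with a log2 fold change of 0.13 ± 0.19 (SE, limma unadjusted p = 0.526). HK2, the inducible form linked to tumors, had means of 21.5 ± 4.88 in vehicle and 27.2 ± 4.63 in WCE tumors (SD, n = 3), a log2 fold change of 0.33 ± 0.18 (limma unadjusted p = 0.105). Without the nearly identical libraries its log2 fold change was 0.49 ± 0.18 (limma unadjusted p = 0.0409, adjusted p = 0.255). GPI, which isomerises glucose 6-phosphate to fructose 6-phosphate, had a log2 fold change of 0.05.

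Phosphofructokinase, which makes fructose 1,6-bisphosphate and commits the sugar to glycolysis, is built from subunits of 3 genes, and the mean of each was higher in WCE tumors. PFKL, the liver form and the most abundant of them here (chr21:45719925-45747261), was at 49.8, 35.4 and 55.2 FPKM in vehicle tumors and 54.6, 54.3 and 65.8 in WCE tumors. Vehicle replicate 2 was low and WCE replicate 3 was high, and the groups overlapped at a log2 fold change of 0.33 ± 0.17 (limma unadjusted p = 0.0958). Without the nearly identical libraries PFKL was at 0.50 ± 0.20 (limma unadjusted p = 0.0499, adjusted p = 0.271). PFKM, the muscle form (chr12:48499656-48540187), was at 21.1, 19.6 and 22.4 FPKM in vehicle tumors and 22.8, 30.5 and 24.2 in WCE tumors. The groups did not overlap, but WCE replicate 1 exceeded vehicle replicate 3 by 0.023 on the log2 scale, which is the smallest step between the groups and lies between the nearly identical libraries. The log2 fold change of PFKM was 0.28 ± 0.13 (limma unadjusted p = 0.065), and 0.40 ± 0.14 without both libraries (limma unadjusted p = 0.0374, adjusted p = 0.247). PFKP, the platelet form, had a log2 fold change of 0.20 ± 0.16 (limma unadjusted p = 0.239).

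The PFKFB enzymes set the level of fructose 2,6-bisphosphate, the strongest activator of phosphofructokinase. Of the 3 genes, 1 had a higher and 2 a lower mean in WCE tumors. None passed the unadjusted threshold with all 6 tumors. PFKFB3, the form with high kinase activity, had means of 16.3 ± 4.26 FPKM in vehicle and 21.5 ± 2.59 in WCE tumors (SD, n = 3). Its log2 fold change was 0.41 ± 0.18 (limma unadjusted p = 0.0551), and 0.63 ± 0.15 without the nearly identical libraries (limma unadjusted p = 0.00752, adjusted p = 0.183). PFKFB4, a form induced by low oxygen, was at 16.9, 20.8 and 30.9 FPKM in vehicle tumors and 32.2, 14.3 and 21.5 in WCE tumors. The highest values were again in vehicle replicate 3 and WCE replicate 1, the lowest in WCE replicate 2, and the log2 fold change was -0.04 ± 0.31 (limma unadjusted p = 0.901). PFKFB2, the form known from heart (chr1:207226620-207254368), was at 8.05, 8.10 and 8.16 FPKM in vehicle tumors and 7.91, 8.04 and 8.03 in WCE tumors. All WCE values lay below all vehicle values, yet the whole range was 0.040 on the log2 scale, the narrowest of the list, and the log2 fold change was -0.02 ± 0.09 (limma unadjusted p = 0.848).

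The lower part of glycolysis held the most abundant transcripts and both genes called at the unadjusted threshold. GAPDH, which oxidises glyceraldehyde 3-phosphate and makes NADH (chr12:6643585-6647537), was at 2195, 1781 and 2709 FPKM in vehicle tumors. It was at 2730.2, 3221 and 3860.3 FPKM in WCE tumors. All WCE tumors lay above all vehicle tumors, again with the smallest step between vehicle replicate 3 and WCE replicate 1, where it was 0.011 on the log2 scale. The means were 2228 ± 465 and 3270.4 ± 567 (SD, n = 3), 46.8% higher in WCE tumors. The log2 fold change was 0.56 ± 0.20 (SE, limma unadjusted p = 0.0224, adjusted p = 0.623). Without the nearly identical libraries it was 0.83 ± 0.19 (limma unadjusted p = 0.00646, adjusted p = 0.18). The unadjusted p of GAPDH rose above 0.05 when vehicle replicate 2 (0.0855), WCE replicate 2 (0.0556) or WCE replicate 3 (0.0953) was left out of the limma fit. GAPDH took 0.282% to 0.549% of the summed FPKM of a tumor, and it ranked 25 by mean FPKM among the 24000 entries.

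ENO2, the neuron-specific enolase, which makes phosphoenolpyruvate and is a serum marker of neuroendocrine tumors (chr12:7023614-7032859), was at 35.6, 36.9 and 60.5 FPKM in vehicle tumors. In WCE tumors it was at 56.8, 76.8 and 88.8 FPKM. WCE replicates 2 and 3 were the highest and vehicle replicates 1 and 2 the lowest, and the groups overlapped only through vehicle replicate 3 and WCE replicate 1. The means were 44.4 ± 13.99 and 74.1 ± 16.1 (SD, n = 3), 67.2% higher in WCE tumors. The log2 fold change was 0.75 ± 0.24 (SE), the highest of the list, with an unadjusted p of 0.0143 and an adjusted p of 0.623 in limma. Without the nearly identical libraries it was 1.16 ± 0.12 (limma unadjusted p = 0.000139, adjusted p = 0.133). Leaving out vehicle replicate 1 raised the unadjusted limma p above 0.05 (0.0544), as did leaving out vehicle replicate 2 (0.0582) or WCE replicate 3 (0.0569). ENO1, the ubiquitous enolase, stood at 815 ± 127 and 991 ± 126 FPKM (SD, n = 3), a log2 fold change of 0.29 ± 0.15 (limma unadjusted p = 0.104).

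**Figure D2:**
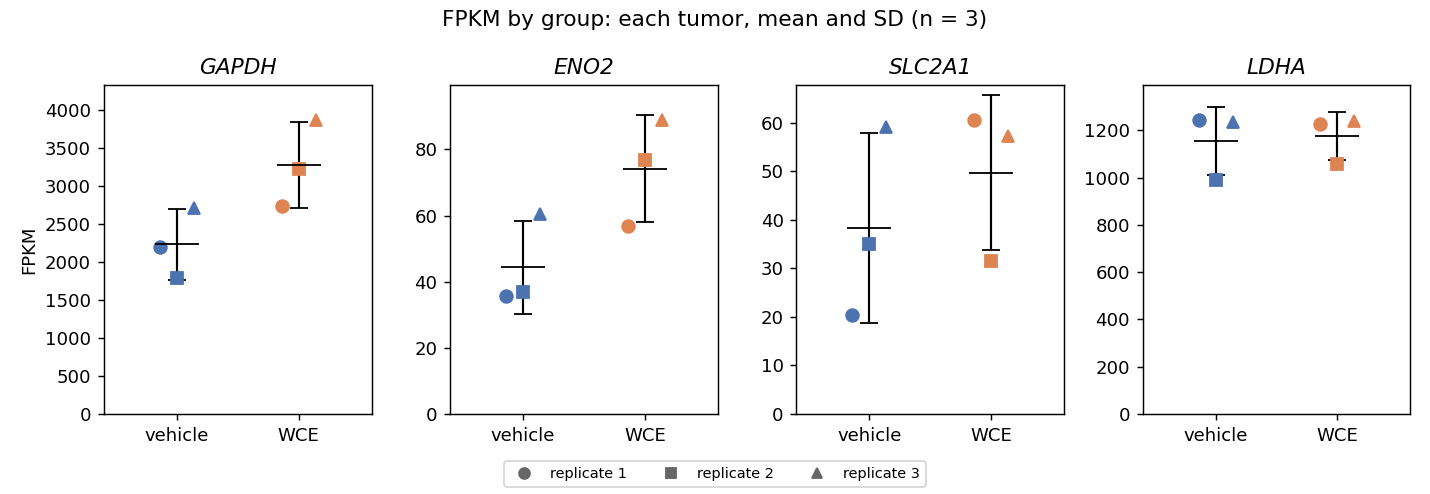
FPKM of GAPDH, ENO2, SLC2A1 and LDHA in each tumor (linear axes from 0), with symbols for the replicate number and black bars for the mean and SD of 3 tumors. GAPDH values do not overlap between groups (1781 to 2709 against 2730.2 to 3860.3), those of ENO2 and SLC2A1 overlap, and LDHA means are 1156 and 1175.

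The other enzymes of the lower part did not pass the unadjusted threshold with all 6 tumors. ALDOC, the brain form of the aldolase that splits fructose 1,6-bisphosphate, had a log2 fold change of 0.45 ± 0.25 (limma unadjusted p = 0.117). Without the nearly identical libraries the value for ALDOC was 0.70 ± 0.15 (limma unadjusted p = 0.00459, adjusted p = 0.179). ALDOA, the main aldolase, had means of 619 ± 71.0 and 574 ± 103 FPKM (SD, n = 3) and was the only gene of these 9 with a lower mean in WCE tumors, at a log2 fold change of -0.12 ± 0.16. TPI1, which interconverts the triose phosphates, had 0.22 ± 0.12 (limma unadjusted p = 0.0989). Without both libraries TPI1 had 0.34 ± 0.13 (limma unadjusted p = 0.0453, adjusted p = 0.265). PGK1, which makes ATP from 1,3-bisphosphoglycerate, ranged from 389 to 777 FPKM over the tumors and had a log2 fold change of 0.22 ± 0.26. PGAM1, the phosphoglycerate mutase, had 0.05 ± 0.13, and PKM, the pyruvate kinase that makes ATP and pyruvate in the last step, had 0.17 ± 0.12. PKM is 1 entry in the table, so its M1 and M2 splice forms were not separated. GAPDH, LDHA, PGK1, TPI1 and ENO1 have processed pseudogenes or close copies, and how reads that fit several places were assigned is not given in the sources used here.

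The group means of the lactate genes lay close together, while single tumors of a gene differed by up to 1.45 times. LDHA, the dehydrogenase subunit that favours lactate formation (chr11:18415936-18429765), was at 1243, 991 and 1234 FPKM in vehicle tumors and 1226, 1059 and 1241 in WCE tumors. The tumors with replicate number 2 were the lower ones in both groups, and the groups overlapped. The log2 fold change was 0.03 ± 0.13 (limma unadjusted p = 0.842), with a 95% interval from -0.29 to 0.34. LDHB, the subunit that favours pyruvate formation, had a log2 fold change of 0.10 ± 0.17. SLC16A1 (MCT1), which carries lactate in both directions, had 0.03 ± 0.12, and SLC16A3 (MCT4), the exporter of glycolytic cells, had 0.12 ± 0.18. The lowest unadjusted p among these 4 genes was 0.523 in limma.

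The genes that pass pyruvate to the mitochondrion had lower means in WCE tumors in 3 of 4 cases, and none passed the test. PDHB, the beta subunit of the E1 part of pyruvate dehydrogenase (chr3:58413357-58419579), was at 74.3, 64.7 and 58.3 FPKM in vehicle tumors and 54.5, 63.2 and 56.6 in WCE tumors. Vehicle replicate 1 was high, and the groups overlapped at a log2 fold change of -0.17 ± 0.12 (limma unadjusted p = 0.184). PDHA1, the alpha subunit, had -0.22 ± 0.13 (limma unadjusted p = 0.132). When vehicle replicate 3 was left out, PDHA1 passed the unadjusted threshold at -0.32 (limma unadjusted p = 0.0447). PDK3, a kinase that switches pyruvate dehydrogenase off, had -0.27 ± 0.20 (limma unadjusted p = 0.215), and -0.46 when vehicle replicate 2 was left out (limma unadjusted p = 0.0373). PDK1, the kinase of this family induced by low oxygen, had 0.02 ± 0.26, and its highest values were 11.04 and 10.7 FPKM in vehicle replicate 3 and WCE replicate 1.

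Of the glycogen genes, GYS1, the synthase outside the liver (chr19:49471382-49496610), was at 14.1, 13.5 and 14.6 FPKM in vehicle tumors and 15.1, 15.1 and 16.9 in WCE tumors. The groups did not overlap, and the log2 fold change was 0.14 ± 0.09 (limma unadjusted p = 0.169). PYGL, the liver phosphorylase that releases glucose 1-phosphate (chr14:51371935-51411248), was at 92.3, 75.4 and 90.2 FPKM in vehicle tumors and 92.6, 68.5 and 93.8 in WCE tumors. Replicate 2 was the lowest in both groups, and the log2 fold change was -0.02 ± 0.15 (limma unadjusted p = 0.874). The branching enzyme GBE1 and PGM1, which links glucose 1-phosphate to glucose 6-phosphate, both had 0.14 on this scale.

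**Figure D3:**
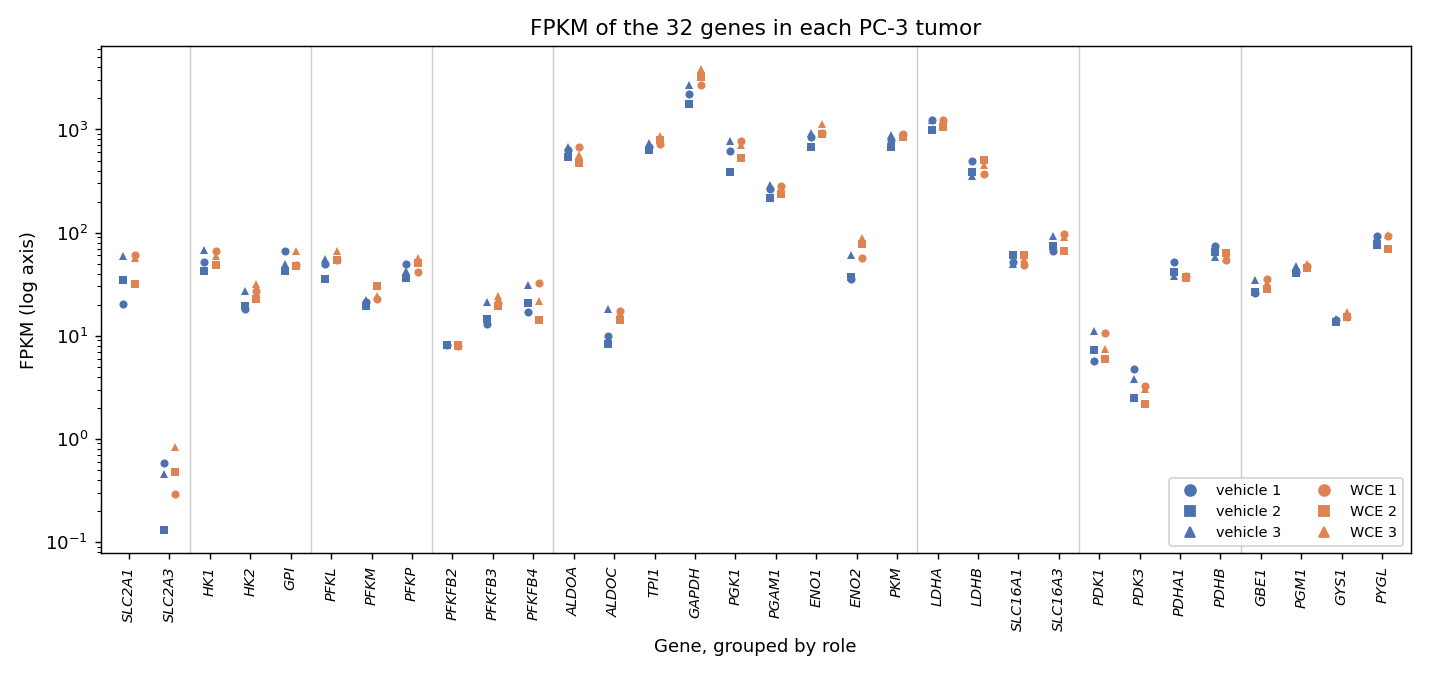
FPKM of the 32 genes in each tumor on a log axis, in the order of the steps with grey lines between roles, blue symbols for vehicle and orange for WCE. The 9 genes with a mean of at least 100 FPKM all lie in the lower part of glycolysis or are lactate dehydrogenases, and SLC2A3 lies below 1 FPKM in every tumor.

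Levels differed far more between genes than between tumors. The 9 genes with a mean of at least 100 FPKM were GAPDH, LDHA, ENO1, PKM, TPI1, PGK1, ALDOA, LDHB and PGAM1, and 908 of the 24000 entries reached that level. Every gene of the list was above 0 in every tumor. LDHA ranked 73 and ENO1 99 by mean FPKM, and 28 of the 32 genes had a mean of at least 10 FPKM. GAPDH, with a mean of 2749 FPKM, was the highest and LDHA, with 1166, the second highest gene of the list in every tumor, while ENO1, with 903, and PKM, with 833, changed places between tumors.

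Forms of the same step were also compared as ratios within each tumor, which do not depend on the scaling between tumors. All 10 ratios overlapped between groups, and in an exact permutation test over the 20 splits of the tumors, two-sided, the smallest p was 0.2 for HK2 to HK1, ALDOC to ALDOA and ENO2 to ENO1 (0.667 adjusted over the 10 pairs). The smallest p this design allows is 0.1. ENO2 was 0.0420, 0.0548 and 0.0657 of ENO1 in vehicle tumors and 0.0615, 0.0842 and 0.0782 of it in WCE tumors. WCE replicates 2 and 3 had the highest ratios, and the groups overlapped only through WCE replicate 1, which lay below vehicle replicate 3. The geometric mean was 1.39-fold higher in WCE tumors, and without both nearly identical libraries it was 1.69-fold higher, from 0.0480 to 0.0811, with the groups apart. ALDOC to ALDOA was 1.52-fold higher in WCE tumors, from 0.0186 to 0.0282 in geometric mean, and 1.92-fold higher without both libraries. Without them the groups were apart in 5 of the 10 pairs, with WCE tumors above for HK2 to HK1, PFKFB3 to PFKFB4, ALDOC to ALDOA and ENO2 to ENO1 and below for PFKP to PFKL. The exact permutation p was 0.333 for each of these 5, the smallest that 2 tumors per group allow. LDHB to LDHA had geometric means of 0.355 and 0.375 (exact permutation p = 0.9).

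**Figure D4:**
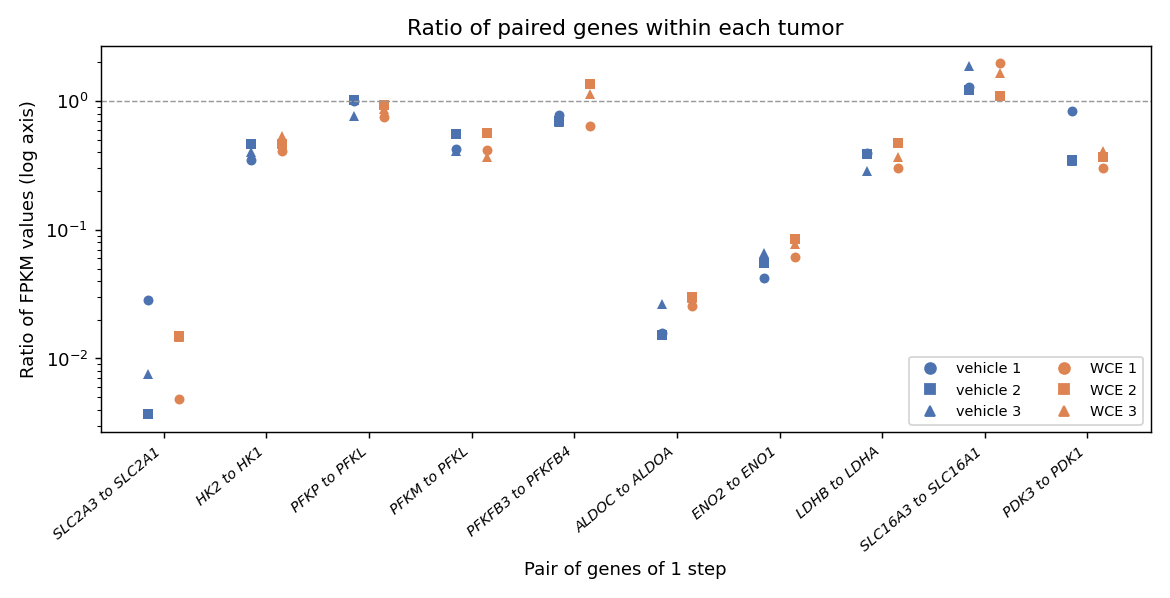
Ratio of the FPKM values of paired genes within each tumor on a log axis, with blue symbols for vehicle and orange for WCE tumors and a dashed line at a ratio of 1. Groups overlap in all 10 pairs, and ENO2 to ENO1 and ALDOC to ALDOA have geometric means 1.39-fold and 1.52-fold higher in WCE tumors.

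The tumors differed in a way that the labels do not describe. For 15 of the 31 genes (48.4%) the 3 highest values were those of vehicle replicate 3, WCE replicate 1 and WCE replicate 3, an order found in 5.76% of all entries tested. These genes were SLC2A1, HK1, HK2, PFKL, PFKFB3, PFKFB4, ALDOC, PGK1, PGAM1, ENO1, PKM, SLC16A3, PDK1, GBE1 and PGM1. The order was singled out after the values were seen, and 2 of its tumors are the nearly identical libraries. The same order held for 8 of 13 other genes known to respond to low oxygen (61.5%), CA9, NDRG1, ADM, BNIP3, BNIP3L, EGLN3, ANGPTL4 and KDM3A. The summed FPKM of these 13 genes was 711, 576 and 1107 in vehicle tumors and 1102, 541 and 1066 in WCE tumors. It was thus high in vehicle replicate 3, WCE replicate 1 and WCE replicate 3 and low in the other 3. The first 2 of these are the nearly identical libraries and may not count as separate tumors. NDRG1, a stress gene raised by low oxygen, was at 329, 212 and 542 FPKM in vehicle tumors and 539, 215 and 594 in WCE tumors.

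Of the 13 hypoxia genes, 8 had a higher and 5 a lower mean in WCE tumors, with a median log2 fold change of 0.12, and 0 passed the unadjusted threshold in either direction. GAPDH and ENO2 did not follow that order, because WCE replicate 2, which was low in the hypoxia genes, was the second highest tumor for both. The summed FPKM of the 32 genes was 8544, 7020 and 9500 in vehicle tumors and 9506, 9392 and 10958 in WCE tumors. Vehicle replicate 2 held the lowest value for 15 of the 31 genes (48.4%, against 17.6% of all entries) and WCE replicate 3 the highest for 12 (38.7%, against 12.9%). Oxygen in the tumors was not measured in the table, and its part in the result was not tested.

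**Figure D5:**
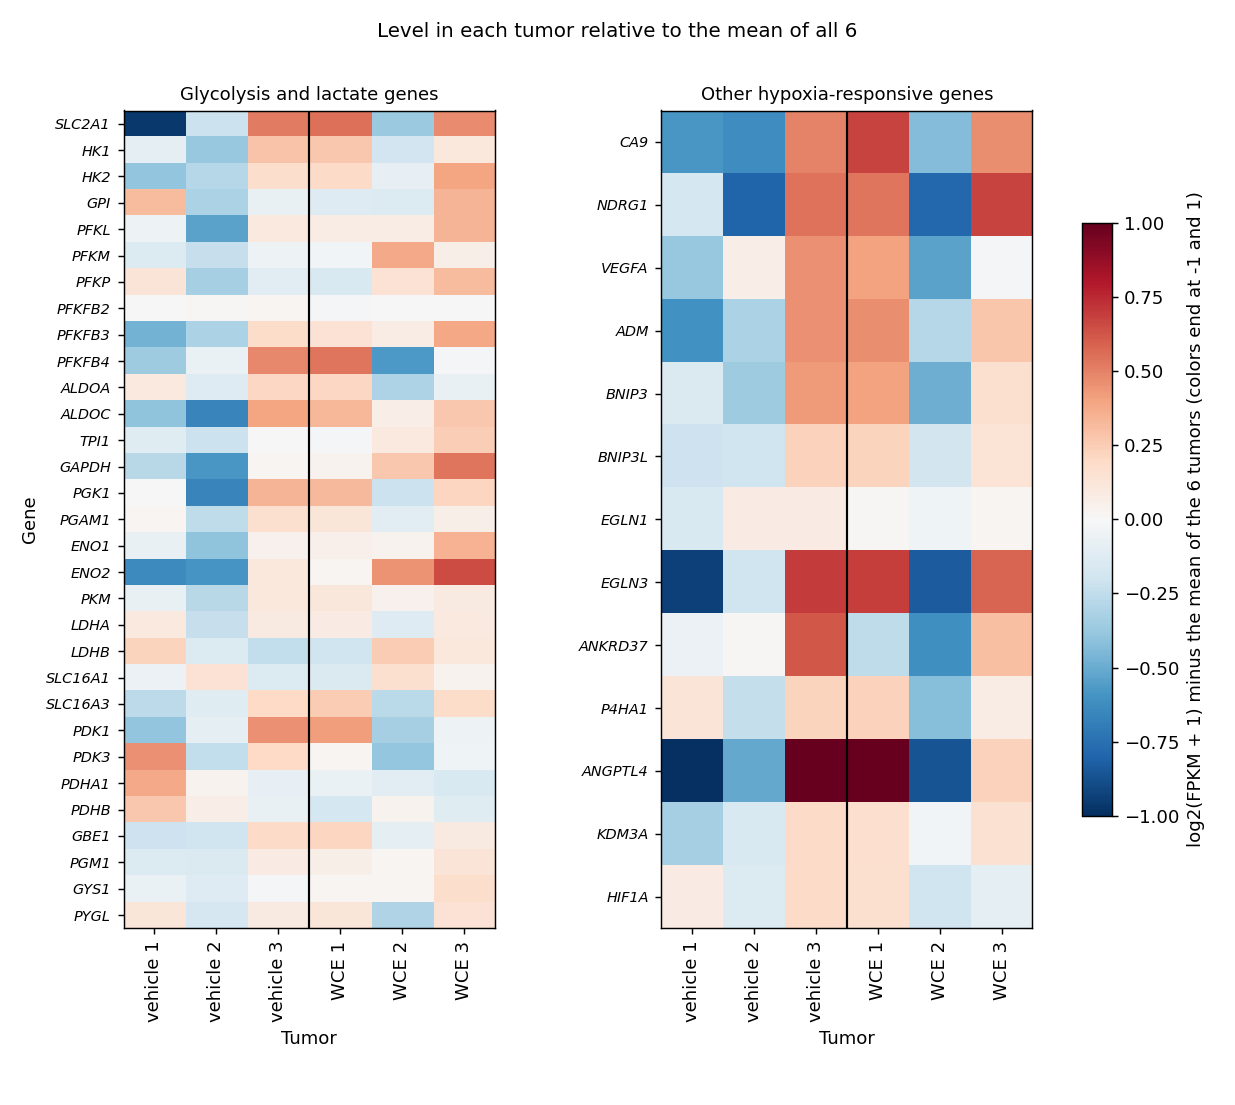
Centred log2(FPKM + 1) of the 31 tested glycolysis and lactate genes (left) and 13 other hypoxia-responsive genes (right) in the 6 tumors, with red above and blue below the mean of the 6 and a black line between groups. Vehicle replicate 3, WCE replicate 1 and WCE replicate 3 hold the 3 highest values in 15 of the 31 and 8 of the 13 genes.

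Further genes of glucose use were described in the same way. Of 47 such genes 33 were tested, and 12 (36.4%) had a higher and 21 a lower mean in WCE tumors, where 48.6% of all entries had a higher mean. Their median log2 fold change was -0.06, and the difference from the glycolysis genes was not tested. The calls that follow, 1 of 33 (3.03%) in each direction, stand beside 3.78% of all entries higher and 3.33% lower. At an unadjusted p under 0.05 only PGAM2, the muscle mutase, was higher, at 0.48 ± 0.13 (limma unadjusted p = 0.0066, adjusted p = 0.623) and at most 2.87 FPKM. Only MPC1 was lower, a subunit of the mitochondrial pyruvate carrier that the table lists as BRP44L. It was at 20.1, 21.7 and 19.0 FPKM in vehicle tumors and 19.3, 15.1 and 13.6 in WCE tumors, with a log2 fold change of -0.34 ± 0.14 (limma unadjusted p = 0.0411, adjusted p = 0.623). The groups overlapped through WCE replicate 1, and without both nearly identical libraries the value was -0.51 ± 0.12 (limma unadjusted p = 0.00618).

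Of 9 genes of the pentose phosphate pathway, which makes NADPH and ribose 5-phosphate from glucose 6-phosphate, 8 were tested. At the unadjusted threshold 3 (37.5%) were lower, against 3.33% of all entries, and none was higher. RPE, the ribulose phosphate epimerase, was at 23.0, 17.2 and 17.7 FPKM in vehicle tumors and 16.5, 13.6 and 13.5 in WCE tumors. All its WCE values lay below all vehicle values, with a log2 fold change of -0.38 ± 0.14 (limma unadjusted p = 0.0273). TALDO1, the transaldolase, had -0.27 ± 0.11 (limma unadjusted p = 0.0365) with groups apart. The smallest step between its groups lay between the nearly identical libraries, at 150 FPKM in vehicle replicate 3 and 147 in WCE replicate 1. RPIA, the ribose phosphate isomerase, had -0.33 ± 0.13 (limma unadjusted p = 0.038) with groups that overlapped, and -0.51 ± 0.12 without both nearly identical libraries (limma unadjusted p = 0.00619). TKT, the transketolase, which rearranges sugars as TALDO1 does, had -0.07 ± 0.13 (limma unadjusted p = 0.588). The adjusted p was 0.623 for each of these 3 genes in limma.

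Single markers of other cells moved with the groups in some cases. Only 2 of 5 endothelial, 1 of 5 leukocyte and 3 of 6 fibroblast markers reached a mean of 0.5 FPKM. A called gene is therefore not a measure of its cell type here. Of 5 endothelial markers 2 were tested, and KDR, the VEGF receptor, was at 0.216, 0.247 and 0.529 FPKM in vehicle tumors and 0.559, 1.59 and 5.12 in WCE tumors (log2 fold change 1.14 ± 0.44, limma unadjusted p = 0.0345, adjusted p = 0.623). The KDR groups were apart, with the smallest step between the nearly identical libraries. Without both of these KDR was at 1.69 ± 0.41 (limma unadjusted p = 0.00839). PECAM1, the other marker tested, had 0.14 ± 0.27 (limma unadjusted p = 0.613). The endothelial sum ranged from 1.201 to 3.37 FPKM in vehicle and from 3.21 to 7.60 in WCE tumors, and KDR made up 5.12 of the 7.60 in WCE replicate 3. The 5 leukocyte markers summed to 25.8 to 41.0 FPKM in vehicle and 39.8 to 44.4 in WCE tumors, nearly all of it CD68. The 6 fibroblast markers summed to 42.1 to 56.4 FPKM in vehicle tumors and to 55.9, 12.8 and 53.7 in WCE tumors, and LUM was lower (log2 fold change -0.85 ± 0.32, limma unadjusted p = 0.0308, adjusted p = 0.623). Without both nearly identical libraries LUM was at -1.31 ± 0.21 (limma unadjusted p = 0.00139). The 6 muscle markers summed to 1.70 to 6.24 FPKM, and MYH1 was listed at 0 in every tumor. Among 4 epithelial markers EPCAM, a surface adhesion protein, was lower in WCE tumors (log2 fold change -0.73 ± 0.21, limma unadjusted p = 0.00889, adjusted p = 0.623). The EPCAM groups were apart, again with the smallest step between the nearly identical libraries. Without both of these EPCAM was at -1.08 ± 0.14 (limma unadjusted p = 0.000551). KRT8 had 0.05, KRT18 0.10 and KRT19 -0.01, and the median of the 4 epithelial markers was 0.02. Their part in the differences of the glycolysis genes was not tested. How mouse reads were kept apart from human reads is not given in the sources used here.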

How the data were processed

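RNA of 6 PC-3 tumors was measured, 3 per treatment, and tumors were grouped by their labels. The authors deposited 1 table of FPKM values. Its processing notes name TopHat2 2.0.13, Cufflinks and the builds hg19 and mm10, without saying which build served which step. Annotation, scaling between tumors and the treatment of mouse reads are not given in the sources used here. Every column was used. The members and lists were chosen with earlier results of these data known. Full values are given for genes with an unadjusted p under 0.05 or groups apart and for the most abundant gene of each role.

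FPKM values were changed to log2(FPKM + 1), which understates changes of low genes, and the 13287 entries whose mean FPKM reached 0.5 were tested in R 4.3.3 by limma 3.58.1 (mean-variance trend, two-sided, Benjamini-Hochberg adjustment over all entries). The p-values reflect the spread between these tumors. Ratios within tumors were compared by an exact permutation test in Python 3.11.15. The steps were tested on simulated data. Depth is known only relative to the other tumors, so no counting intervals are given. Other choices of pseudocount, filter, scaling and trend were tried, as were an unmoderated test, tumor weights, a replicate block and leaving tumors out. Figures were drawn with matplotlib 3.10.9. The values of 1 related gene are not reported here.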

Additional observations from a re-analysis of the deposited data

How the results depend on the processing

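In every alternative 0 genes of the list passed the adjusted threshold, and the median log2 fold change of the list stayed positive, from 0.08 to 0.25 with 1 tumor left out. Of the 31 genes, 21 kept their sign in all 16 alternatives. The replicate numbers did not pair the tumors, since the deviations of same-numbered tumors correlated at -0.24 to 0.16. With a replicate block, 5 genes of the list were higher at the unadjusted threshold, where 2 were without it. With tumor weights 11 were higher, with the nearly identical libraries left out 8, without a filter on low values 1 and with an unmoderated test 0. With 1 tumor left out, 0 to 6 were higher and 0 to 1 lower. Over all entries the number at the unadjusted threshold was 944, and it was 593 with the unmoderated test, 3201 with tumor weights, 2449 without the nearly identical libraries and 219 to 2033 with 1 tumor left out. The cause was not tested. Scaling left the counts of the list at 2.

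The sign of some small differences turned. PDK1 was at -0.0033 after quantile normalization and -0.10 with tumor weights. PYGL was at 0.023 and 0.095 in these settings. With 1 tumor left out, log2 fold changes ran from -0.25 to 0.0080 for ALDOA, -0.10 to 0.22 for GPI, -0.033 to 0.30 for HK1, -0.079 to 0.10 for LDHA, -0.18 to 0.26 for PDK1, -0.32 to 0.24 for PFKFB4, -0.069 to 0.14 for PGAM1, -0.059 to 0.44 for PGK1, -0.12 to 0.12 for PYGL and -0.041 to 0.11 for SLC16A1. Log2 differences of ratios ran from -0.10 to 0.24 for LDHB to LDHA, -0.60 to 0.045 for PDK3 to PDK1, -0.22 to 0.092 for PFKM to PFKL, -0.10 to 0.33 for SLC16A3 to SLC16A1 and -0.53 to 0.94 for SLC2A3 to SLC2A1. The last was -0.30 with a pseudocount of 1. Of the related genes and markers named, RPE stayed under the unadjusted threshold in 12 of 16 alternatives, TALDO1 in 11, RPIA in 10, MPC1 in 8, PGAM2 in 16, EPCAM in 15, LUM in 10 and KDR in 9, and all kept their sign. Depth limits the low genes most, SLC2A3 among them, and in WCE replicate 1 above all.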
